A study of Oryza sativa with 156 samples.

Results

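The 150 genes described here were chosen in leaves of drying rice, in a moderate and a severe course. Scaled by library totals, their RNA level averaged over moderate days 1-4, and over severe days 3-5, had hardly parted from that of irrigated leaves. On days 9-12 of both courses it was higher in drought. For the choice, each count was divided by its library's total, expressed as CPM, counts per mega count (1 M) of the library, and put on the scale log2(1 + CPM), and the mean of the control libraries was taken from the mean of the drought libraries. This log2 difference had to lie within 0.2 of 0 on moderate days 1-4 and on severe days 3-5, in genes with a mean CPM of at least 5. It was taken over all days of a stretch together, so single days could lie further from 0. Of 55986 identifiers in the table, 12067 reached that level, 3531 lay within both early limits, and 475 of these were above 0 on days 9-12 in both courses. The 150 with the largest value of the smaller late difference were taken, and they are called the late risers below. The values of those 4 stretches of days chose the genes, so they are given as a description and are not tested. Days 0 and 5-8 of the moderate course and days 0, 1-2 and 6-8 of the severe course entered the choice only through the mean CPM, and the tests are made there. A correction described below also draws on control libraries of the early stretches.

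When soil dries, plants make the hormone abscisic acid, which closes the stomata and switches on protective genes within the first stage of water loss. Longer drying is known to bring further change in leaves: growth and photosynthesis are cut back, solutes are built up, and older leaves may enter senescence, in which their proteins and chlorophyll are broken down and nitrogen is moved out. IR64 is known as a cultivar bred for irrigated fields and as sensitive to drought.

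The libraries were made from polyA RNA of leaves of IR64, an indica rice, grown in pots in a growth chamber. The moderate drought group had its water supply stopped 14 days after sowing, so that the pots drained, and was set against irrigated moderate controls. The severe drought group stood in pots raised above the hose, which drained faster, and had irrigated severe controls of its own. With 3 libraries for each arm of each course on every day from 0 to 12, there were 52 groups and 156 libraries. Whether replicates were different plants is not in the labels, so the p-values measure the spread between these libraries, which may be technical. No gene of the table could be matched to a name here, so genes are given by identifier, at most 2 higher and 2 lower in a comparison, no role is given for them, and the leaf could not be checked against leaf marker genes. In whole leaves, more cells of a type and more RNA per cell cannot be told apart.

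Library totals ran from 6.42 to 26.2 M (mega counts), with medians of 17.8 M in moderate drought, 18.3 M in moderate control, 15.2 M in severe drought and 12.3 M in severe control. All 11684 identifiers numbered on chromosomes 10 to 12 were listed at 0 in every library, so the totals and the late risers come from identifiers numbered on chromosomes 1 to 9. The libraries also formed 2 sets that crossed the drought and control groups of the severe course. The mean log2(1 + CPM) of 3 genes picked from these data to mark the sets was at least 6.09 in 49 libraries and at most 5.44 in the other 107. The higher set held every severe drought library of days 0-5, every severe control library of days 3-12 and 1 moderate drought library of day 0. On days 0-2 severe drought was in the higher and severe control in the lower set, on days 6-12 it was the other way round, and on days 3-5 both were in the higher set. Depth went with the sets. Median totals on days 0, 1-2, 3-5, 6-8 and 9-12 were 9.19, 11.0, 10.3, 16.7 and 17.5 M in severe drought. In severe control they were 14.6, 18.8, 11.1, 12.0 and 11.4 M. The moderate course lay in the lower set but for the 1 drought library of day 0. That library and both severe libraries of day 6 with replicate number 3 stood apart in earlier work on these data, and the counts without them are given where they differ by over 1.5 times.

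On days 9-12, the stretch that chose them, the late risers were modestly higher in drought. Their log2 difference had a median of 0.19 in the moderate course, from 0.12 to 1.05, and of 0.29 in the severe course, from 0.12 to 2.27. Over all 12067 genes of that level the medians were -0.08 and -0.06. The late difference was larger in the severe course for 105 late risers and in the moderate course for 45. On these days drought and control lay in different library sets in the severe course only, so course and set cannot be told apart in this count. None of the 150 reached a difference of 1, which is 2-fold on this scale, in both courses, 7 reached 0.5 in both and 37 reached 0.25 in both. At the limits of the choice, the last gene taken had a smaller late difference of 0.116 and the first left out 0.115. The gene nearest inside the early limit of the moderate course had -0.196 there, and another gene, nearest inside that of the severe course, had -0.198 there. The genes nearest outside, again different for each course, had 0.20 in the moderate and 0.202 in the severe course. The lowest mean CPM inside was 5.03 and the highest outside was 4.90.

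The early limits depended on how the libraries were scaled. With TMM, which sets the typical gene to no change, the median of the late risers on moderate days 1-4 was -0.08 where library totals gave 0.02, and 104 of the 150 were below 0. On severe days 3-5 it was -0.09 where library totals gave 0.06, and 120 were below 0. Over all genes of that level, library totals put the median at 0.11 on moderate days 1-4 and at 0.16 on severe days 3-5. Relative to the typical gene, many late risers were thus slightly lower in drought early on, with a lowest value of -0.30 in the moderate and -0.36 in the severe course. Single early days could differ more. With TMM the mean of the 150 on severe day 3 was 5.33 to 5.41 in drought, against 5.52 to 5.67 in control. LOC_Os02g52730 had at most 58.6 CPM in drought and at least 70.6 CPM in control on moderate day 1. On moderate day 3 it had at least 75.8 CPM in drought and at most 74.6 CPM in control. The late differences were larger with TMM, with medians of 0.27 in the moderate and 0.36 in the severe course.

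**Figure D1:**
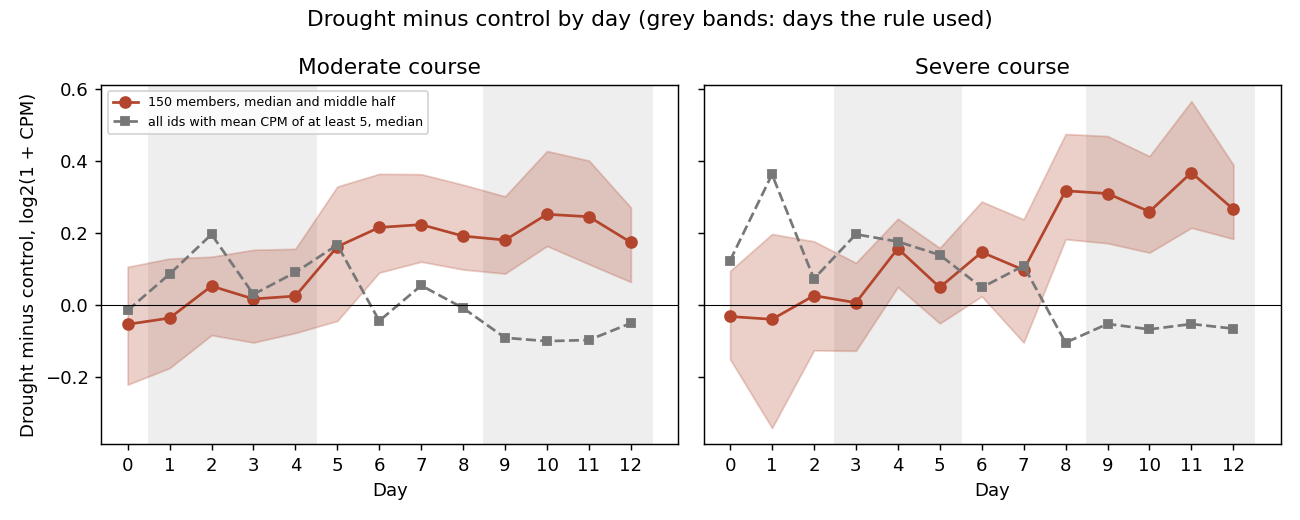
Drought minus control on the log2(1 + CPM) scale, scaled by library totals, for each day (x axis) of the moderate course (left) and the severe course (right). The red line is the median of the 150 late risers with their quartiles as a band, the grey dashed line is the median of all 12067 genes with a mean CPM of at least 5, and grey columns mark the days used for the choice. The members' median was 0.02 to 0.05 on moderate days 2-4 and 0.16 to 0.22 on moderate days 5-8, and in the severe course it was 0.10 on day 7 and 0.32 on day 8. On moderate day 5 and severe day 7 the median of all genes, 0.17 and 0.11, was as high.

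Later drought levels lay above earlier drought levels, and later control levels below earlier control levels, for most of the 150. Between the early and the late days of the choice, on the TMM scale, the level in moderate drought was higher by a median of 0.30 and was higher for 147 of the 150 late risers. The level in moderate control was lower by a median of 0.07 and was lower for 108 of them. In severe drought the later level was higher by a median of 0.33 and for 149 late risers, and in severe control it was lower by a median of 0.14 and for 124. Severe drought lay in the higher library set on days 3-5 and in the lower on days 9-12, so set and drying cannot be told apart in its change. Severe control lay in the higher set on both stretches. A drought level that was higher and a control level that was lower later on were found together in 105 late risers in the moderate course and in 123 in the severe course. These are the libraries that chose the genes, and over all genes the 4 medians lay between -0.01 and 0.00.

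Averaged over the days between, many late risers were already higher in drought, least so on day 5. On moderate days 5-8, with 12 libraries a group, the mean over the 150 of log2(1 + CPM), scaled by library totals, was at lowest 5.46, at the median 5.66 and at highest 5.82 in moderate drought, against 5.32, 5.45 and 5.63 in moderate control. Within each of those 4 days every drought library lay above every control library. The gap was narrowest on day 7, when the lowest drought library had 5.46 and the highest control library 5.44. With TMM the groups stayed apart on days 6 and 8 and overlapped on days 5 and 7, when the lowest drought libraries had 5.39 and 5.32 and the highest control libraries 5.57 and 5.54. By edgeR's quasi-likelihood test with Benjamini-Hochberg adjustment over the 19338 genes tested, 57 of the 150 were called higher at an adjusted p under 0.05, which is 38.0%, beside 14.2% of all genes. None was called lower, beside 14.5% of all genes, and 11 had a fold change below 0. The log2 fold change of the 150 had a median of 0.17, from -0.20 to 0.96, beside 0.00 over all genes tested. Of the 57 called, 3 reached 1.5-fold and 0 reached 2-fold. Without 1 replicate number, between 28 and 47 of the 150 were called higher, the fewest without replicate 2, against 31 without replicate 1. Over all genes, 2027 of 19377 were called higher without replicate 2, 2023 of 19547 without replicate 1 and 1537 of 19358 without replicate 3.

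**Figure D2:**
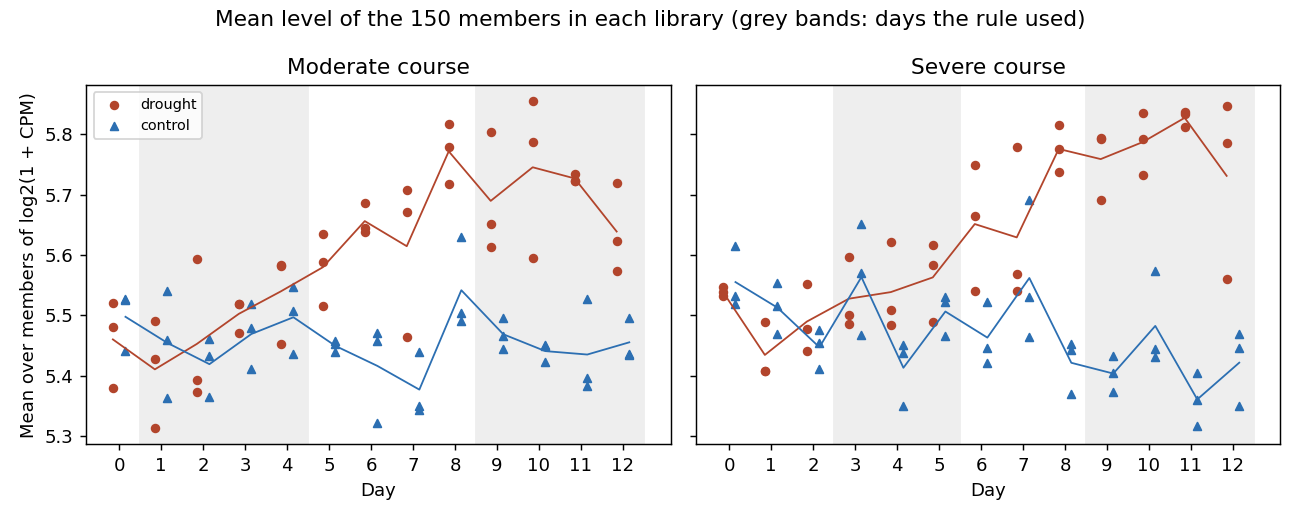
Mean over the 150 late risers of log2(1 + CPM), scaled by library totals, in each library by day (x axis), for the moderate course (left) and the severe course (right). Red circles are drought libraries, blue triangles control libraries, lines join the daily means and grey columns mark the days used for the choice. In this scaling drought lay above control without overlap on moderate days 5-12 and on severe days 6 and 8-12, and with TMM moderate days 5 and 7 overlapped.

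Single days of the moderate course gave few calls, with 3 libraries a group. On day 5, 3 late risers were called higher and 2 lower, beside 6.36% and 6.39% of all genes, and with TMM their median log2 fold change was 0.02, with 80 of the 150 above 0. On days 6 to 8 that median was 0.20 to 0.25. On day 6 there were 5 higher and 0 lower, beside 1.09% and 1.17%, on day 7 there were 4 and 0, beside 2.63% and 1.99%, and on day 8 there were 1 and 0, beside 0.434% and 0.165%. With TMM the mean drought level was above the mean control level on each of the 4 days for 67 of the 150, beside 22.4% of all genes of that level.

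LOC_Os02g52730 and LOC_Os09g31130 had the largest smaller fold change among the late risers called in both courses. LOC_Os02g52730 ranged from 61.4 CPM through a median of 85.2 to 147 CPM in the 12 moderate drought libraries of days 5-8, against 19.6, 45.4 and 85.0 CPM in moderate control. On days 5, 6 and 7 no drought library was as low as a control library of the same day, whereas on day 8 the drought libraries had 146.7, 74.71 and 85.78 CPM, against 67.74, 50.31 and 85.04 CPM in control. Its log2 fold change was 0.94 (SE 0.16, edgeR adjusted p = 4.44e-06). LOC_Os09g31130 is a gene of low level, with 4.27, 9.58 and 24.8 CPM at the lowest, median and highest in moderate drought, against 2.59, 5.21 and 10.8 CPM in moderate control. The groups overlapped, and day 8 held the highest drought values, 24.75, 16.69 and 19.17 CPM, against 8.654, 4.413 and 7.052 CPM in control. Its log2 fold change was 0.96 (SE 0.19, edgeR adjusted p = 3.14e-05).

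In the severe course many late risers were higher in drought in the average of days 6-8, most of all on day 8. The mean level of the 150, scaled by library totals, over 9 libraries a group was at lowest 5.54, at the median 5.74 and at highest 5.82 in severe drought, against 5.37, 5.45 and 5.69 in severe control. On day 6 the lowest drought library, at 5.540, lay just above the highest control library, at 5.521, on day 7 the groups overlapped, and on day 8 the drought libraries had at least 5.74 and the control libraries at most 5.45. With TMM too, days 6 and 8 did not overlap and day 7 did. By edgeR's quasi-likelihood test 45 of the 150 were called higher, or 30.0%, beside 11.4% of all genes, and 0 lower, beside 11.3%. The log2 fold change had a median of 0.19, from -0.30 to 0.71, and 135 of the 150 were above 0. Taken by day, 0 were called on day 6, beside 1.33% higher and 1.73% lower over all genes. On day 7, 5 were called higher and 2 lower, beside 1.97% and 2.97%, and on day 8, 57 were called higher and 0 lower, beside 5.54% and 6.48%. Day 6 had a median log2 fold change of 0.13 with 116 of the 150 above 0, day 7 had 0.01 with 76 above 0, and day 8 had 0.44 with 147 above 0. With TMM the mean level was above control on each of the 3 days for 57 of the 150, beside 25.1% of all genes of that level. Over the 3 days together, 28 were called higher without replicate 1 and 50 without the libraries that stood apart. Over all genes these were 1315 of 19547 and 2852 of 19709.

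Drought and control lay in different library sets on severe days 6-8. The set markers averaged 3.02 to 4.00 in severe drought and 6.59 to 7.29 in severe control, so set and drought cannot be told apart there without another comparison. With the set difference, estimated from severe control days 3-5 against days 0-2 beyond the same change in moderate controls, taken out of each gene, 9 late risers were called higher and 1 lower, beside 4.79% and 3.25% of all genes, and their median was 0.03. In that estimate, higher minus lower set, the late risers had a median of -0.18, beside 0.03 over all genes tested. It rests on control libraries of which some entered the choice of the 150, so it is a description. Set against the moderate controls of the same days, which lay in the lower set as severe drought did, 47 of the 150 were called higher and 2 lower in severe drought, beside 13.8% and 14.7% of all genes. The median log2 fold change was then 0.14. The late differences of the severe course, on days 9-12, crossed the sets in the same way, so on those days the choice could not separate drought from set. On moderate days 5-8 the set markers overlapped, with 3.44 to 4.40 in drought and 3.02 to 4.33 in control.

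LOC_Os02g52730 had 44.3, 73.6 and 83.9 CPM at the lowest, median and highest of the 9 severe drought libraries of days 6-8, against 29.7, 36.1 and 97.8 CPM in severe control. Drought and control overlapped on days 6 and 7 and not on day 8, and on day 7 drought had 83.86, 44.33 and 45.8 CPM, against 97.83, 48.2 and 47.48 CPM in control. Its log2 fold change was 0.57 (SE 0.19, edgeR adjusted p = 0.0194). That call ended without replicate 1 (adjusted p = 0.118) or 2 (0.198), with the set difference taken out (0.318) and against the moderate controls (0.0758). LOC_Os09g31130 had 4.29, 8.20 and 12.8 CPM in severe drought, against 3.05, 4.45 and 12.8 CPM in severe control, with a log2 fold change of 0.71 (SE 0.22, edgeR adjusted p = 0.0115). This call ended without replicate 1 (adjusted p = 0.134) or 2 (0.0777).

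Part of the calls were shared between the courses. Of the 150, 27 were called higher both on moderate days 5-8 and on severe days 6-8, which is 47.4% of the 57 and 60.0% of the 45. Over all genes 1080 were called higher in both, 39.3% of the moderate and 48.9% of the severe calls. Another 30 late risers were called in the moderate course and not in the severe, 18 in the severe and not in the moderate, and 75 in neither. Those 75 had median log2 fold changes of 0.11 in the moderate and 0.12 in the severe course, with median SEs of 0.10 and 0.12. The 27 called in both had 0.30 and 0.34, with a median CPM over all libraries of 27.3, beside 45.3 in the 75, scaled by library totals and not corrected for length. The difference between the courses was itself tested on days 6-8, as drought over control in severe minus the same in moderate. No late riser passed, beside 0.0465% of all genes higher and 0.631% lower, with 8 at an unadjusted p under 0.05 and 0 called by DESeq2. With the set difference taken out 3 passed, 2 of them higher and 1 lower, with 51 at an unadjusted p under 0.05 and a median of -0.21. Over all 19338 genes 43 were then called higher and 48 lower. Without replicate 3 none passed, beside 30 higher and 87 lower of 19358 genes, with 36 at an unadjusted p under 0.05 and a median of -0.16. In the first test the difference had a median of -0.04, from -0.62 to 0.36, and a median SE of 0.14.

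**Figure D3:**
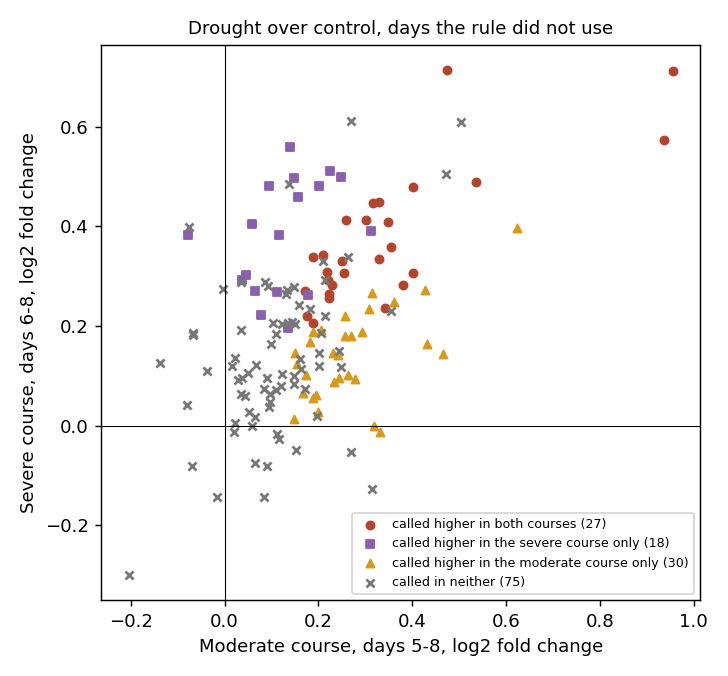
Log2 fold change of drought over control for each of the 150 late risers on moderate days 5-8 (x axis) and severe days 6-8 (y axis), days not used for the choice. Colour and shape give the calls by edgeR's quasi-likelihood test: 27 late risers were called higher in both courses, 30 in the moderate, 18 in the severe and 75 in neither, and most points lie above 0 on both axes.

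The late risers with the largest late differences were partly called in the days between. Of the 10 late risers with the largest smaller late difference, 5 were called higher on moderate days 5-8 and 2 on severe days 6-8. The first of them, LOC_Os03g39610, drew the most reads of the 150, with a mean of 4127 CPM over all libraries. That mean is scaled by library totals and not corrected for gene length. On moderate days 9-12 it had 3350, 5548 and 8147 CPM at the lowest, median and highest of 12 drought libraries, against 1193, 3099 and 4388 CPM in control. On severe days 9-12 it had 2037, 3941 and 8126 CPM in drought, against 792, 1833 and 3604 CPM in control. The groups overlapped in both stretches, and the log2 differences that ranked it were 0.93 and 0.99. Earlier its libraries scattered, with 1591, 7144 and 11670 CPM in moderate drought on days 5-8, against 3121, 5305 and 11140 CPM in moderate control. It was not called there (log2 fold change 0.09, SE 0.26, edgeR adjusted p = 0.825) nor on severe days 6-8 (0.28, SE 0.30, adjusted p = 0.548), where it had 1157, 3861 and 7276 CPM in drought, against 1041, 2675 and 6647 CPM in control.

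The second by this order, LOC_Os04g52260, was likewise scattered before the late days. On moderate days 9-12 it had 329, 821 and 1665 CPM in drought, against 143, 394 and 728 CPM in control, and on severe days 9-12 it had 155, 500 and 1412 CPM in drought, against 64.6, 233 and 416 CPM in control. Its log2 differences there were 0.85 and 1.29. It was not called on moderate days 5-8 (log2 fold change 0.27, SE 0.30, edgeR adjusted p = 0.537) nor on severe days 6-8 (0.61, SE 0.35, adjusted p = 0.21). On severe day 7 a control library reached 2062 CPM, above every severe drought library of days 6-8, of which the highest had 1473 CPM.

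**Figure D4:**
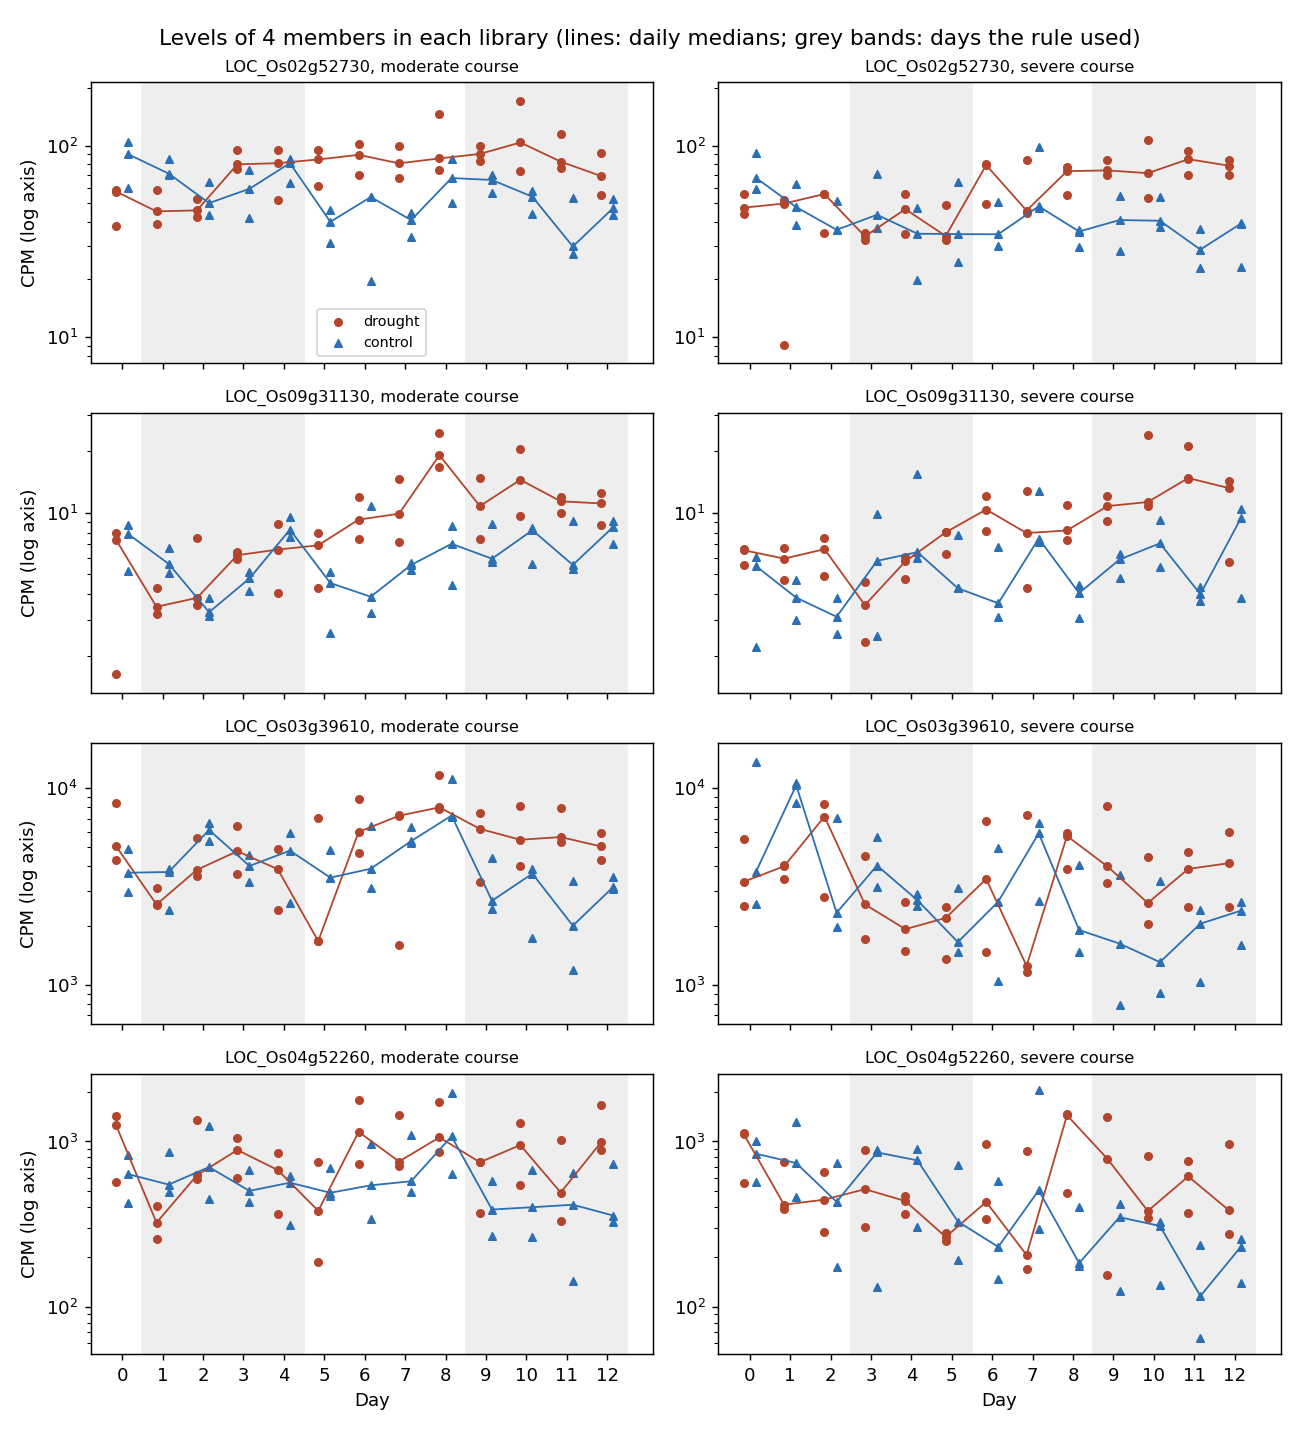
CPM (log axis, TMM scaled) of 4 late risers in each library by day, moderate course on the left and severe course on the right. Red circles are drought libraries, blue triangles control libraries, lines join the daily medians and grey columns mark the days used for the choice. The daily medians of LOC_Os02g52730 and LOC_Os09g31130 lie higher in drought from moderate day 5 onwards, whereas the drought and control libraries of LOC_Os03g39610 and LOC_Os04g52260 overlap on each of moderate days 5-8.

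Early in the severe course the direction was the other one, and here it depended on the scaling. On severe days 1-2, with 6 libraries a group, 59 of the 150 were called lower by edgeR's quasi-likelihood test with TMM, or 39.3%, beside 18.4% of all genes, and 2 higher, beside 19.2%. The median log2 fold change was -0.24, and 125 were below 0. Scaled by library totals, 19 were called lower, beside 9.89% of all genes, and 20 higher, beside 39.2%. In that fit the median log2 fold change over all genes tested was 0.27. On the log2(1 + CPM) scale the median difference of the late risers lay below that of all genes in both scalings, at -0.24 against 0.00 with TMM and at -0.02 against 0.22 with library totals. On day 1, when with TMM the mean of the 150 was 5.24 to 5.42 in severe drought, against 5.69 to 5.79 in severe control, there were 70 late risers called lower and 2 higher, beside 17.1% and 19.1% of all genes. Day 2 had 3 lower and 0 higher, beside 4.83% and 3.53%. Without replicate 1, 38 were called lower over both days together, beside 2824 of 19547 genes.

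These 2 days also crossed the library sets, with all 6 severe drought libraries in the higher set and all 6 severe control libraries in the lower. With the set difference taken out, 20 late risers were called lower and 3 higher, beside 13.0% and 9.12% of all genes, with a median of -0.03. The set difference was itself estimated against severe control days 0-2, so it shares the control libraries compared here. It also brings in severe control days 3-5, which entered the choice, so this result cannot separate set from drought.

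LOC_Os02g51910 and LOC_Os04g16680 were the most lowered on severe days 1-2. LOC_Os02g51910 had 2.77, 4.64 and 5.90 CPM at the lowest, median and highest of 6 severe drought libraries, against 6.52, 8.29 and 12.5 CPM in severe control, without overlap. Its log2 fold change was -0.95 (SE 0.25, edgeR adjusted p = 0.00152). LOC_Os04g16680 had 420, 791 and 1100 CPM in severe drought, against 1016, 1340 and 1577 CPM in severe control, and the highest drought library lay above the lowest control library. Its log2 fold change was -0.85 (SE 0.17, edgeR adjusted p = 3.27e-05), a call that ended with the set difference taken out (adjusted p = 0.651). The 2 late risers called higher were LOC_Os09g31130 (0.79, edgeR adjusted p = 0.0214) and LOC_Os09g25310 (0.23, adjusted p = 0.0146). Both calls ended with the set difference taken out (adjusted p = 0.963 and 0.657) and without replicate 1 (0.0922 and 0.122) or 2 (0.106 and 0.0831).

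**Figure D5:**
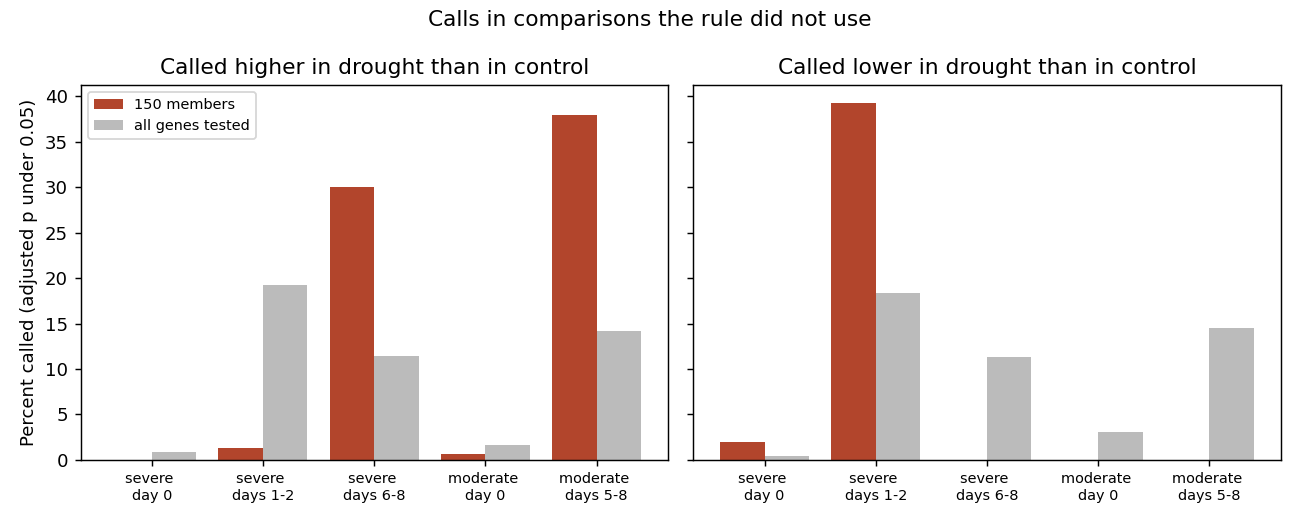
Share of the 150 late risers (red) and of all 19338 genes tested (grey) called higher (left) or lower (right) in drought than in control at an adjusted p under 0.05, in percent, for the comparisons that the choice did not use. The late risers stand at 38.0% higher on moderate days 5-8 and 30.0% higher on severe days 6-8, and at 39.3% lower on severe days 1-2.

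At day 0, with 3 libraries a group, edgeR called few late risers. In the moderate course 1 was called higher and 0 lower, beside 1.68% and 3.01% of all genes. DESeq2 on the libraries compared alone called 8 higher and 6 lower, beside 694 and 1081 of 14538 genes. The edgeR call was LOC_Os02g35900, with 239.2, 234.1 and 230.7 CPM in moderate drought, against 203.2, 186.8 and 177.9 CPM in moderate control (log2 fold change 0.31, SE 0.10, edgeR adjusted p = 0.0462). No library of the groups overlapped, though the call ended without any 1 replicate number (adjusted p from 0.157 to 0.264) and without the libraries that stood apart (0.102). In the severe course 0 were called higher and 3 lower, beside 0.858% and 0.45% of all genes, and the median of the 150 was -0.18. LOC_Os07g41580 was lowered most among them, with 5.786, 9.391 and 7.382 CPM in severe drought, against 14.19, 11.71 and 11.36 CPM in severe control (log2 fold change -0.71, edgeR adjusted p = 0.0153). The next, LOC_Os05g51500, had 150.9, 168.4 and 170.1 CPM in severe drought, against 304.0, 233.9 and 250.3 CPM in severe control (log2 fold change -0.69, edgeR adjusted p = 7.62e-06). The sets differed between the arms on that day, and 0 late risers were called with the set difference taken out, and 0 without replicate 1. Over all genes, 7 were called higher and 19 lower in the former, and 19 higher and 9 lower in the latter. Here too the set difference rests in part on the control libraries of day 0 that are compared.

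Set against day 0 of the same arm, more late risers were called higher in moderate drought than in moderate control. From day 0 to days 5-8, 54 of the 150 were called higher and 3 lower in moderate drought, beside 9.48% and 9.83% of all genes, with a median log2 change of 0.25. In moderate control 1 was called higher and 5 lower, beside 2.31% and 3.79%, with a median of 0.05, and 0 to 4 were called in all without 1 replicate number. Over all genes, 8 higher and 23 lower were called without replicate 3, which gave the 0. Without replicate 1, which gave the 4, it was 175 and 342. DESeq2 on the libraries compared alone called 40 higher and 4 lower in moderate drought, beside 1317 and 1422 of 17481 genes. In moderate control it called 14 higher and 8 lower, beside 745 and 889 of 17437 genes. The count in drought was 6 without replicate 2, 21 without replicate 1 and 27 without the 3 libraries that stood apart. It was also 27 by edgeR on the libraries compared alone. Over all genes the calls were fewer as well. They were 249 higher and 509 lower of 19377 without replicate 2, and 887 and 1249 of 19547 without replicate 1. Without the libraries that stood apart they were 751 and 975 of 19709, and by edgeR on the libraries compared alone 749 and 1170 of 17498.

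LOC_Os08g06280 and LOC_Os03g09940 rose most from day 0 in moderate drought, though neither was called higher than moderate control on days 5-8. LOC_Os08g06280 had 24.6, 121 and 259 CPM at the lowest, median and highest on days 5-8, against 32.66, 53.47 and 50.0 CPM on day 0 (log2 change 1.26, edgeR adjusted p = 0.0131). LOC_Os03g09940 had 37.6, 59.3 and 85.2 CPM on days 5-8, without overlap with its 29.06, 24.78 and 27.56 CPM on day 0 (log2 change 1.10, edgeR adjusted p = 0.00834). Both calls ended without replicate 1 (adjusted p = 0.127 and 0.0715) and without replicate 2 (0.18 and 0.109). In moderate control LOC_Os03g09940 had 38.9 to 87.1 CPM on day 0, all above drought, and 32.2 to 85.4 CPM on days 5-8. LOC_Os08g06280 had 33.4 to 64.6 CPM in control on day 0 and 43.6 to 151 CPM on days 5-8. Drought over control on days 5-8 was 0.14 (edgeR adjusted p = 0.609) for LOC_Os03g09940 and 0.50 (0.0767) for LOC_Os08g06280. The change of that difference from day 0 was called for neither (0.0748 and 0.646). Of the 3 called lower, LOC_Os03g51920 was lowered most (log2 change -1.26, edgeR adjusted p = 0.00186), but its day 0 libraries had 5.093, 23.54 and 11.41 CPM, and without replicate 2, which held the 23.54, the adjusted p was 0.46.

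The difference of these changes, drought minus control and days 5-8 minus day 0, was called higher for 9 late risers and lower for 0, beside 2.36% and 0.915% of all genes, a comparison added after the data were seen. It was largest in LOC_Os02g52730 and LOC_Os01g25484. On day 0 LOC_Os02g52730 had 38.16, 58.62 and 57.6 CPM in moderate drought, below the 90.18, 60.06 and 104.4 CPM of moderate control, and on days 5-8 it stood higher in drought, as given above. Its level in moderate control was itself lower on days 5-8 than on day 0 (log2 change -0.89, edgeR adjusted p = 0.0198), a call that ended without any 1 replicate number (adjusted p from 0.0667 to 0.261). The change of its difference was 1.66 (SE 0.37, edgeR adjusted p = 0.00922). LOC_Os01g25484 had 450.2, 593.1 and 600.4 CPM in moderate drought on day 0, against 930.6, 658.1 and 1044 CPM in moderate control, and 601, 842 and 1497 CPM at the lowest, median and highest in moderate drought on days 5-8, against 288, 591 and 873 CPM in moderate control. The change of its difference was 1.30 (SE 0.33, edgeR adjusted p = 0.017). Without any 1 replicate number none of the 150 was called. Few were called over all genes then: 46 higher and 41 lower of 19547 without replicate 1, 0 and 0 of 19377 without replicate 2, and 3 and 0 of 19358 without replicate 3. Without the libraries that stood apart 4 of the 150 were called higher, beside 217 higher and 65 lower of 19709 genes.

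The late risers varied together only in part. Over the 66 libraries that the choice did not use, the correlation of each with the mean of the other late risers had a median of 0.57, from -0.07 to 0.91. Within course, arm and day it had a median of 0.48, and 11 late risers were below 0. These libraries share drought, day and library set, and the correlations are a description. The genes most like LOC_Os03g39610 over those libraries, among all genes tested, were LOC_Os02g10390 (Pearson's r 0.95) and LOC_Os07g46310 (0.94), neither of them a late riser, and of the 5 most like it 2 were late risers. By the chromosome number in their identifiers, the 150 were spread much as all genes of that level, with 28 on chromosome 3, or 18.7% beside 16.5%, 23 on chromosome 2 and 22 on chromosome 1. Their mean CPM had a median of 40.6, from 5.03 to 4127, beside 28.0 for all genes of that level, both scaled by library totals and neither corrected for gene length.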

How the data were processed

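The authors deposited 1 table of raw, unnormalized read counts for all genes and samples. The submitters' processing notes name STAR, featureCounts 2.0.0 and the genome build IRGSP-1.0, and a directional library kit was used, per the labels' protocols. How reads on either strand or with several matches were treated, and which STAR version was run, is not given in the sources used here, so overlapping genes and near-identical copies may share counts. Column names gave the samples. There were 4 columns of no sample, which stayed out, and no columns were identical.

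The genes, and the lists and tests used for them, were chosen with earlier results of these data known. The 55986 identifiers matched 0 entries of the gene table at hand (assembly ASM3414082v1), so lists by product name, leaf markers, promoter motifs and sequences could not be used.

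edgeR 4.0.16 (R 4.3.3) was used for the tests. Genes kept by filterByExpr (minimum count 10, minimum total 15) numbered 19338, all 150 late risers among them. Libraries were scaled by TMM, and a quasi-likelihood model with a mean for each of the 52 groups and 104 residual degrees of freedom was fitted to all 156 libraries. Contrasts average the days of a stretch, p-values have a Benjamini-Hochberg adjustment over these 19338 genes, and called means an adjusted p under 0.05. Standard errors (SE) were computed as |log2 fold change| divided by √F. CPM levels computed here use TMM-scaled totals unless stated. The method was tested on simulated data for moderate days 5-8, in which every gene had the same dispersion, 0.05, and no other group differed. It recovered 5 of 49 genes changed 1.25-fold, 31 of 49 changed 1.5-fold and 46 of 49 changed 2-fold. Of 18350 genes left unchanged, 5 were called. Recovery at the spread of the late risers themselves was not tested. At most 2 identifiers a direction were named by rank in the choice, then by the smaller fold change among genes called in both courses, and otherwise by size among genes called. Alternatives were DESeq2 (1.42.0) size factors, DESeq2 or edgeR on the libraries compared only, no low-count filter, a replicate block, leaving out each replicate number or the libraries that stood apart, and the set difference taken out. Scaling by library totals, another dispersion estimate and the day 0 difference of differences were added after the data were seen. Same-numbered replicates deviated together in 13 of 78 pairs (correlation over 0.1, median 0.00), so they were not treated as pairs.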

Additional observations from a re-analysis of the deposited data

Results flagged for a closer look

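The drought minus control difference was larger on days 5-8 than on day 0 of the moderate course for 9 of the 150 late risers, by edgeR's test of the difference between these differences, and smaller for 0. LOC_Os02g52730 had the largest change, 1.66 on the log2 scale, and LOC_Os01g25484 the next, 1.30. In both genes every moderate drought library of day 0 lay below every moderate control library of that day, so part of each change lies in day 0. Without any 1 replicate number 0 of the 9 were called, when at most 46 genes were called higher and 41 lower over all genes.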

How the results depend on the processing

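The direction of the main results held under most settings. Without 1 replicate number, 28 to 47 of the 150 were called on moderate days 5-8, 28 to 36 on severe days 6-8, 38 to 41 on severe days 1-2, 0 on moderate day 0, 0 to 3 on severe day 0, 6 to 47 for moderate drought against its day 0, 0 to 4 for moderate control against its day 0, and 0 for the difference of these changes. Over all genes, moderate day 0 then gave 76 higher and 44 lower without replicate 1. It gave 0 and 0 without replicate 2, and 5 and 1 without replicate 3. Severe day 0 gave 19 and 9, 46 and 19, and 100 and 76 in that order. Moderate drought gave 249 and 509 without replicate 2, where 6 of the 150 were called, and 1390 and 1494 without replicate 3, where 47 were. With the set difference taken out, the counts in both directions were 10 on severe days 6-8, 23 on severe days 1-2, 0 on severe day 0 and 3 for severe minus moderate. Over all genes, severe day 0 then gave 7 higher and 19 lower, and severe minus moderate gave 43 and 48. Scaling by library totals gave 39 on severe days 1-2, with 20 higher and 19 lower, 1 on moderate day 0, now lower, and 15 for moderate control. No low-count filter gave 0 on moderate day 0, 1 for moderate control and 4 for the difference of changes. DESeq2 on the libraries compared gave 14 on moderate day 0 and, for moderate control, 22, with 14 higher and 8 lower, and edgeR on them gave 0 on severe day 0 and 27 for moderate drought. Over all genes, edgeR on them called 3 higher and 3 lower on severe day 0. Without the libraries that stood apart, 0 were called on moderate day 0, 27 for moderate drought and 4 for the difference of changes. Over all genes, 122 higher and 150 lower were then called on moderate day 0. The replicate block gave 57 on moderate days 5-8, 48 on severe days 6-8, 63 on severe days 1-2 and 3 on moderate day 0, and the labels do not say what the shared numbers mean.

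The choice of the 150 was less stable. It shared 75 genes with a choice made on TMM-scaled totals, 40 and 79 with an early limit of 0.1 and 0.3, and 72 to 101 with a choice made without 1 replicate number. LOC_Os03g39610, called nowhere, turned to -0.0604 with a replicate block within day on moderate days 5-8, and without 1 replicate number it ran from -0.27 to 0.306. On severe days 6-8 it turned to -0.78 with the set difference taken out, -0.58 against the moderate controls and -0.0762 without the libraries that stood apart, and without 1 replicate number it ran from -0.0425 to 0.726. LOC_Os04g52260 turned to -0.33 against the moderate controls. The cause of these changes was not tested. Of the settings tried for the genes named, 231 kept side and direction, 64 lost the call and 7 turned. The median SE of 0.09 on moderate days 5-8 and 0.10 on severe days 6-8 limits what can be called among log2 fold changes with medians of 0.17 and 0.19. On these days the median depth was lowest in severe control.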
